A study of Mus musculus with 12 samples.

Results

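The genes that encode the constant regions of antibodies, together with 2 helpers of antibody assembly, were followed through RNA-seq of mouse T cells. The 10 genes were taken by symbol from the 45706 genes of the count table: the heavy chain genes Ighm, Ighd, Ighg1, Ighg2b, Ighg2c, Ighg3 and Igha, the light chain gene Igkc, the joining chain gene Jchain, and Mzb1. All 10 passed the filter on low counts and were tested. The study sequenced polyadenylated RNA of conventional T cells and of regulatory T cells, the suppressive lineage that expresses Foxp3. Cells were wild-type (WT) or Coronin1A knockout (KO), where Coro1a encodes an actin-binding protein of leukocytes. The 4 groups, WT conventional, KO conventional, WT regulatory and KO regulatory, hold 3 libraries each. The labels give no treatment, age, strain, sex or organ and no way of sorting, and the kind of knockout allele is not given in the sources used here. The labels do not say how replicates relate to animals, so p reflects only how far these libraries spread. Xist and Y-linked reads show that each conventional group held RNA of both sexes, so those replicates were not all of a single animal.

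Antibodies are made by B cells and, in bulk, by plasma cells. A B cell first uses the mu and delta constant genes, which are spliced from a shared primary transcript, and class switching can later place a gamma or alpha gene behind the same variable region. A heavy chain pairs with a kappa or lambda light chain, the joining chain links IgM and IgA into polymers, and Mzb1 is a chaperone of the endoplasmic reticulum that assists this assembly. T cells do not make antibodies, but transcripts of the mu constant region that carry no rearranged variable segment are known from T cells. A count per gene does not show which kind of transcript a read came from.

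Libraries held 19686870 to 33404302 reads in genes. Levels are CPM, the counts of a gene divided by those of its library and set to a common total, scaled to the counts in genes with TMM factors. Coro1a, the deleted gene, lay at 2124 to 2712 CPM in the 6 WT libraries and at 20.9 to 47.3 CPM in the 6 KO libraries. Summed over 6 genes of T cells (Lat, Cd6, Cd5, Cd3g, Cd3e and Cd3d), libraries held 3063 to 3352 CPM in WT conventional, 1949 to 2316 in KO conventional, 1683 to 2323 in WT regulatory and 1083 to 1663 in KO regulatory cells. By edgeR all 6 were lower in KO conventional cells, at log2 -0.70 to -0.50. In KO regulatory cells 1 of 6 passed, but all 6 lay lower, at log2 -0.62 to -0.39, with an unadjusted p under 0.05. The difference of the KO effects between cell types passed for 0 of the 6. The part of this shift in the results was not tested beyond the scaling to these 6 genes given with Ighm. The 4 regulatory T cell markers Foxp3, Il2ra, Ikzf2 and Ctla4 summed to 82.4 to 133 CPM in WT conventional, 202 to 356 in KO conventional and 1289.8 to 1744 CPM in regulatory libraries. T cell markers were thus present in every library and regulatory T cell markers were highest in the libraries with that label, which also carried B cell transcripts. Cd79a and Cd79b, the signalling chains of the B cell receptor, summed to 1.60 to 2.59 CPM in WT conventional, 7.29 to 16.7 in KO conventional and 1361 to 1828 in regulatory libraries. Conventional replicates 1 and 2 of each genotype held Xist at 1211 to 1746 CPM and almost no Y-linked reads, and replicate 3 of each held Y-linked reads at 456 and 541 CPM and almost no Xist. Of the regulatory libraries 4 held mainly Y-linked reads, while WT 3 and KO 1 held both, at 10 CPM or more of each, a limit set after seeing these levels. Sex thus ran partly with cell type, and KO conventional replicate 3, which had the highest Ighg2b and Ighg2c of its group, was its only library of the Y-linked kind. The part of sex in the results was not tested. Without the mixed pair the counts of the 10 genes that passed each test, given next to each comparison, were the same.

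The 4 IgG heavy chain genes are close copies, and how reads divide among them depends on the positions at which they differ. The first 60 bases of an annotated transcript of each (GENCODE M21, GRCm38, 5′ to 3′) show this, with capitals where the 4 genes do not all carry the same base.
Ighg1: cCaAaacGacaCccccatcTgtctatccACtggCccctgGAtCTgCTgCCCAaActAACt
Ighg2b: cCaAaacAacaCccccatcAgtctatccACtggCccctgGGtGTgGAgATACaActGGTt
Ighg2c: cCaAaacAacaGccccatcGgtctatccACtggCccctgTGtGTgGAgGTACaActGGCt
Ighg3: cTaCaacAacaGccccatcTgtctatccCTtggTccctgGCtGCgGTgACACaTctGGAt
Of these 60 positions, 22 differed and 38 were shared. Aligned over the whole transcript, Ighg2b and Ighg2c were the closest pair at 86.4% identity, and Ighg1 and Ighg3 the most distant at 74.2%. Runs of 50 bases that also occur in another gene made up 5.49% of those of Ighg2c, 4.15% of Ighg2b, 1.58% of Ighg3 and 0.393% of Ighg1, and 0% of those of Ighm, Ighd, Igha, Igkc and Jchain. Reads from such runs can be lost as multimapping or assigned to the wrong copy. For Mzb1 the share was 53.5%, with SPATA24, which overlaps it on the same strand. Reads in that overlap cannot be given to a single gene, so the level of Mzb1 is compared only between libraries.

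The heavy chain genes lie in a row on the minus strand of chromosome 12 (GRCm38) and are annotated as constant region genes. Ighm spans chr12:113418558-113422730 and Ighd chr12:113406604-113416324, followed by Ighg3 at chr12:113356224-113361232, Ighg1 at chr12:113325240-113330523, Ighg2b at chr12:113302965-113307933, Ighg2c at chr12:113285325-113288932 and Igha at chr12:113254830-113260236. Igkc lies on the plus strand at chr6:70726435-70726966, where the predicted gene Gm30211 overlaps it on the same strand. Jchain is a protein-coding gene on the minus strand at chr5:88519809-88527891.

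The first question was how these genes differed between KO and WT libraries of conventional T cells. Class-switched heavy chains, the kappa chain, the joining chain and Mzb1 were all higher in KO, from 7.01-fold for Igha to 47.9-fold for Ighg3. Ighd was 2.74-fold higher, and Ighm differed by less than the spread between replicates. By edgeR's quasi-likelihood test with Benjamini-Hochberg adjustment over all 15922 genes tested, 9 of the 10 genes were higher in KO conventional cells and 0 lower, at an adjusted p under 0.05. Of all genes tested, 48.7% passed in this comparison, 23.3% higher and 25.4% lower. The median log2 fold change of the 10 genes was 3.13, beside -0.05 over all genes.

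In regulatory T cells the same question gave another answer: by edgeR 0 of the 10 genes passed the test between KO and WT, where 7.83% of all genes did (4.01% higher and 3.82% lower). At an unadjusted p under 0.05 there were 3, Igha, Jchain and Ighg2c, all lower in KO, beside 4091 of all 15922 genes. DESeq2 and limma-voom also called 0 of the 10. The median log2 fold change was -0.64, beside 0.00 over all genes. Tested directly, the KO effect in regulatory cells was below that in conventional cells for 9 of the 10 genes, at an adjusted p under 0.05, as it was for 12.4% of all genes, with 8.86% above it and 21.3% differing in either direction. The median difference of the log2 effects was -4.25 for the 10 genes and 0.02 for all genes. The KO effects are differences from WT groups that also serve as baselines of the cell type comparisons, so those comparisons share libraries.

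**Figure D1:**
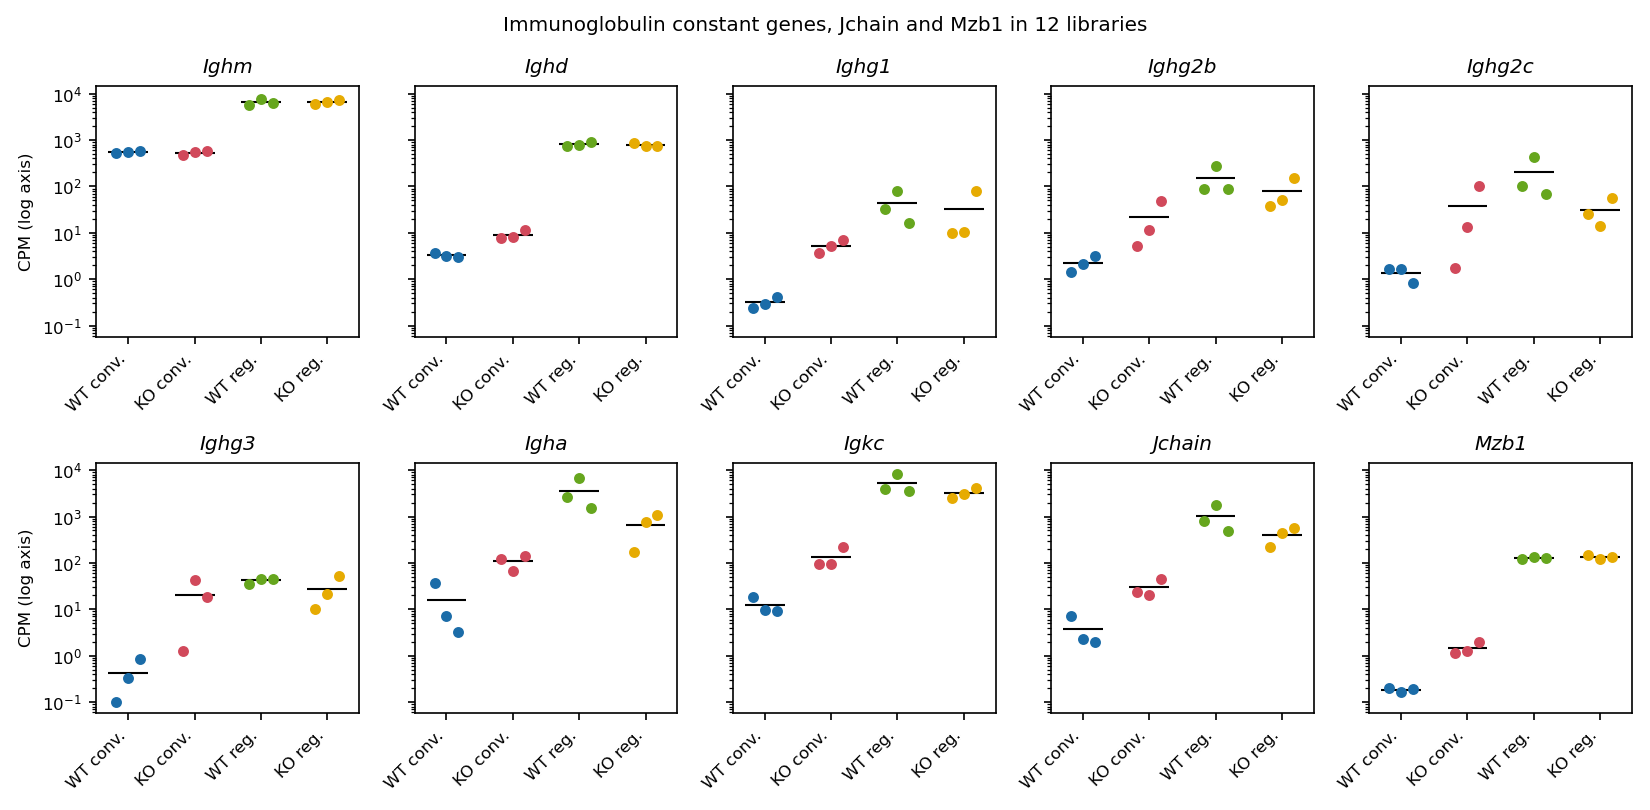
CPM (log axis) of the 10 genes in each of the 12 libraries, with 1 point per library, grouped as WT conventional, KO conventional, WT regulatory and KO regulatory. Ighm sits between 474 and 581 CPM in all 6 conventional libraries, while Igkc lies at 9.07 to 18.7 CPM for WT and 93.9 to 222 CPM in KO conventional libraries.

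Ighm, the constant gene of IgM, varied little among replicates. It held 525, 561 and 581 CPM in WT conventional replicates 1 to 3 and 474, 548 and 581 CPM in KO conventional ones. Regulatory libraries held 5714, 7622 and 6345 CPM for WT and 6051, 6452 and 7301 CPM in KO. The genotypes overlapped in both cell types, and every regulatory library lay above every conventional one. The log2 fold change of KO against WT was -0.06 (SE 0.12, adjusted p = 0.740 by edgeR) in conventional and 0.01 (SE 0.12, adjusted p = 0.975 by edgeR) in regulatory cells. In conventional cells the sign turned to 0.54 (adjusted p = 0.0298 by edgeR) when libraries were scaled to the 6 T cell genes, a scaling that also moved the median of all genes by about as much, to 0.53. In regulatory cells it became 0.52 (adjusted p = 0.0453 by edgeR) under that scaling. Regulatory against conventional cells gave log2 3.56 (SE 0.14) in WT and 3.63 (SE 0.14) in KO, the smallest increase of the 10 genes in WT.

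Ighd, the constant gene of IgD and typical of mature unswitched B cells, lay at 1.73 ± 0.149 CPM per kilobase of exon in WT conventional libraries and Ighm there at 295 ± 14.99 (SD, n = 3). It held 3.60, 3.23 and 3.04 CPM for WT and 7.79, 8.09 and 11.2 CPM in KO conventional libraries. All KO libraries lay above all WT ones, a log2 increase of 1.46 (SE 0.15, adjusted p = 2.62e-05 by edgeR). Regulatory libraries held 759, 794 and 924 CPM for WT and 845, 743 and 759 CPM in KO, with the genotypes overlapping (log2 -0.08, SE 0.12). In WT the regulatory level was 251 times the conventional one, against 11.8 times for Ighm.

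The 4 IgG constant genes, used by switched B cells, differed in how evenly the replicates carried them. Ighg1 held 0.235, 0.293 and 0.416 CPM in WT conventional libraries, which is 7 to 13 reads, and 3.60, 5.29 and 6.99 CPM in KO ones. Its KO libraries lay close together and above all WT ones, with a log2 increase of 4.05 (SE 1.17, adjusted p = 0.0140 by edgeR). In regulatory libraries Ighg1 ranged from 16.1 to 81.5 CPM for WT and from 9.91 to 77.8 CPM in KO, so that the groups overlapped.

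Ighg2c, which some inbred strains carry in place of Ighg2a, held 1.65, 1.66 and 0.833 CPM in WT conventional libraries. Its KO conventional libraries held 1.75, 13.6 and 101 CPM, a 57.6-fold range within a group. KO replicate 1 was thus barely above WT and KO replicate 3 far above it. Its log2 increase in KO was 4.80 (SE 1.38, adjusted p = 0.0139 by edgeR), and it fell to 2.47 (adjusted p = 0.118 by edgeR) without KO conventional replicate 3 and to an adjusted p of 0.0542 without WT conventional replicate 3. WT regulatory libraries held 104, 428 and 69.2 CPM and KO regulatory ones 25.5, 14.3 and 55.4 CPM. Every KO regulatory library lay below every WT one, but the log2 difference of -2.66 (SE 1.07, adjusted p = 0.146 by edgeR) did not pass the test.

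Ighg2b, constant gene of the IgG2b subclass, held 1.45, 2.09 and 3.24 CPM for WT and 5.13, 11.3 and 49.1 CPM in KO conventional libraries. The groups did not overlap, and replicate 3 was again the highest KO library. Its log2 increase in KO was 3.26 (SE 0.95, adjusted p = 0.0143 by edgeR), and the call was lost without KO conventional replicate 3 (1.85, adjusted p = 0.103) and without WT conventional replicate 1 (adjusted p = 0.0516). Ighg3, which encodes the IgG3 subclass, held 0.101, 0.326 and 0.833 CPM for WT and 1.25, 42.2 and 18.1 CPM in KO conventional libraries. Here replicate 2 was the highest KO library, and the log2 fold change of 5.58 (SE 1.21, adjusted p = 0.00296 by edgeR) was the largest of the 10 genes in this fit. WT conventional replicate 1 held 3 reads of Ighg3, so its fold rests on few counts. With limma-voom, 0 of the 4 IgG genes passed in conventional cells, at adjusted p of 0.247 to 0.386 and log2 fold changes of 2.66 to 4.86.

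In regulatory cells Ighg2b held 89.6, 278 and 89.7 CPM for WT and 37.4, 51.7 and 154 CPM in KO. Ighg3 held 34.8, 45.9 and 45.5 CPM for WT and 10.03, 21.5 and 52.5 CPM in KO. For both genes the groups overlapped, because KO replicate 3 reached the WT range.

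Igha, the constant gene of IgA, held 36.4, 7.30 and 3.17 CPM in WT conventional libraries, so that replicate 1 had 11.5 times the level of replicate 3. KO conventional libraries held 124, 65.9 and 138 CPM, all above WT (log2 2.81, SE 0.89, adjusted p = 0.0221 by edgeR). The call was lost without WT conventional replicate 2 (adjusted p = 0.0806), WT conventional replicate 3 (0.0668) or KO conventional replicate 3 (0.0569), with log2 fold changes of 2.32 to 2.61. WT regulatory libraries held 2572, 6753 and 1531 CPM and KO regulatory ones 171, 762 and 1067 CPM. All KO regulatory libraries lay below all WT ones, with a log2 difference of -2.44 (SE 0.85, adjusted p = 0.103 by edgeR) that did not pass the test.

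Igkc encodes the constant part of the kappa light chain, which most mouse antibodies carry. It held 18.7, 9.49 and 9.07 CPM for WT and 93.9, 94.0 and 222 CPM in KO conventional libraries. All KO libraries were higher, by log2 3.46 (SE 0.47, adjusted p = 0.000161 by edgeR). Regulatory libraries held 3963, 8295 and 3559.7 CPM for WT and 2525, 3045 and 4155 CPM in KO, overlapping through KO replicate 3 (log2 -0.70, SE 0.42). Per kilobase of exon, Igkc lay below Ighm in WT conventional libraries, at 23.4 ± 10.3 against 295 ± 14.99 CPM per kilobase (SD, n = 3). The order was the reverse in regulatory libraries, at 9910.3 ± 4934 against 3478 ± 516 in WT and 6094 ± 1565 against 3500.2 ± 339 in KO (SD, n = 3).

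Jchain, which joins IgM and IgA units into polymers and is most abundant in plasma cells, held 7.13, 2.25 and 1.99 CPM for WT and 23.3, 20.8 and 45.9 CPM in KO conventional libraries. The KO libraries all lay higher, by log2 2.99 (SE 0.64, adjusted p = 0.00285 by edgeR). Regulatory libraries held 806, 1808 and 489 CPM for WT and 218, 438 and 571 CPM in KO. KO replicate 3 lay inside the WT range and the other KO libraries below it, with a log2 difference of -1.34 (SE 0.53, adjusted p = 0.142 by edgeR).

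Mzb1 held 0.202, 0.163 and 0.192 CPM in WT conventional libraries, or 5 to 6 reads each, and 1.14, 1.23 and 1.95 CPM in KO ones. The KO libraries lay above WT by log2 2.92 (SE 0.29, adjusted p = 1.85e-05 by edgeR). Regulatory libraries held 123, 136 and 129.8 CPM for WT and 148, 121 and 137 CPM in KO, with no separation of the genotypes (log2 0.06, SE 0.11). Mzb1 and Jchain, both known from antibody-secreting cells, thus differed in their spread: among WT regulatory libraries the highest level was 1.10 times the lowest for Mzb1 and 3.70 times for Jchain.

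**Figure D2:**
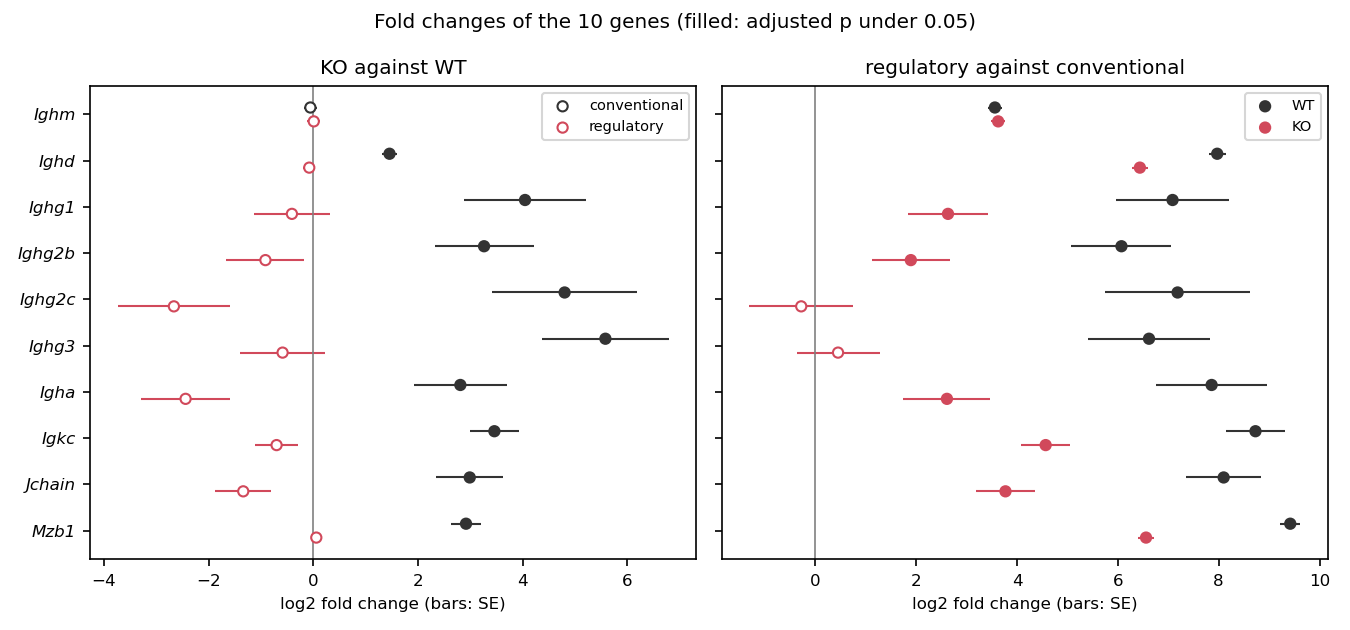
Log2 fold change with its SE for the 10 genes in KO against WT conventional cells, KO against WT regulatory cells, and regulatory against conventional cells of each genotype. Filled points passed the test at an adjusted p under 0.05 (edgeR), which 9 did in the first comparison and 0 in the second.

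Between cell types, all 10 genes were higher in regulatory than in conventional libraries of WT, where 72.4% of all genes differed, 39.1% higher and 33.3% lower. The log2 increase ran from 3.56 for Ighm to 9.42 for Mzb1, with 8.73 for Igkc, 8.10 for Jchain and 7.86 for Igha. In KO, 8 of 10 were higher, where 67.8% of all genes differed, 36.1% higher and 31.7% lower. The KO increases were smaller for 9 of the genes, at 6.56 for Mzb1, 4.57 for Igkc, 3.77 for Jchain and 2.61 for Igha. Ighg2c (log2 -0.28, SE 1.03) and Ighg3 (log2 0.45, SE 0.82) did not pass in KO, and their cell types overlapped. Without KO regulatory replicate 3 the count in KO was 5, with Ighg1, Ighg2b and Igha no longer called. The adjusted p of Ighg2b was 0.0481 with all libraries, in KO its cell types overlapped, and the call was lost in 8 of the 12 fits that left out a library (adjusted p up to 0.260). It was also lost with a minimum count of 50 (0.0625) and with only those groups in the fit (0.0950). Igha was lost without KO conventional replicate 2 as well (adjusted p = 0.0644 by edgeR). With limma-voom, Ighg1 (adjusted p = 0.0646) and Ighg3 (0.0724) were not called in WT, nor Ighg1 in KO (0.131). In these bulk samples, fewer cells of a type and less RNA per cell cannot be told apart.

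The difference of the 2 KO effects was largest in this fit for Ighg2c, at log2 -7.46 (SE 1.76, adjusted p = 0.0125 by edgeR), followed by Ighg3, Igha and Ighg1 at -6.17, -5.25 and -4.45. Igkc differed by -4.16 (SE 0.62, adjusted p = 0.00131 by edgeR), Jchain by -4.33 (SE 0.84, adjusted p = 0.00489 by edgeR) and Mzb1 by -2.86 (SE 0.31, adjusted p = 0.000257 by edgeR). The call for Ighg1 (adjusted p = 0.0428) was lost in 10 of the 12 fits that left out a library and that for Ighg2b (-4.18, adjusted p = 0.0303) in 6. Ighm gave 0.06 (SE 0.18, adjusted p = 0.830 by edgeR), the only gene of the 10 without a call. With limma-voom 5 of the 10 differed, namely Ighd, Igha, Igkc, Jchain and Mzb1.

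The mix of heavy chains was compared next, as the share of heavy chain constant counts that fell on the switched genes (the 4 IgG genes and Igha). This switched share was 6.9996, 2.03 and 1.43% in WT conventional libraries and 21.99, 19.9 and 34.5% in KO ones. In regulatory libraries it was 30.4, 47.4 and 19.4% in WT and 3.55, 10.7 and 14.9% in KO. KO lay above WT throughout in conventional cells and below WT throughout in regulatory cells. Each difference, 21.98 and -22.7 percentage points, gave p = 0.1 in an exact two-sided permutation test, the smallest that 3 libraries against 3 allow, with 0.15 after adjustment over 6 tests. Over both cell types the KO minus WT difference was -0.37 points (exact permutation p = 0.975). The difference of the KO effects, a test added after the values were seen, was -44.7 points (exact permutation p = 0.005, adjusted 0.0175 over 14 added tests), with 0.005 the smallest value possible. Genotype labels were permuted within each cell type, so this p is against no KO effect in either cell type. It does not test whether the 2 effects differ. Since the genotypes lay fully apart in opposite directions, it could only take its smallest value.

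Igha made up most of the switched counts in WT regulatory libraries, at 27.6, 42.2 and 17.0% of heavy chain counts, beside 2.39, 9.46 and 11.3% in KO. In KO conventional libraries the leading switched gene was Igha in all 3, at 20.1, 9.48 and 15.2%. The second place differed between them. Ighg2b followed at 0.831% in replicate 1, Ighg3 at 6.08% in replicate 2, and Ighg2c at 11.1% in replicate 3. Ighg2c thus made up 0.283, 1.95 and 11.1% of heavy chain counts in the 3 KO conventional libraries.

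**Figure D3:**
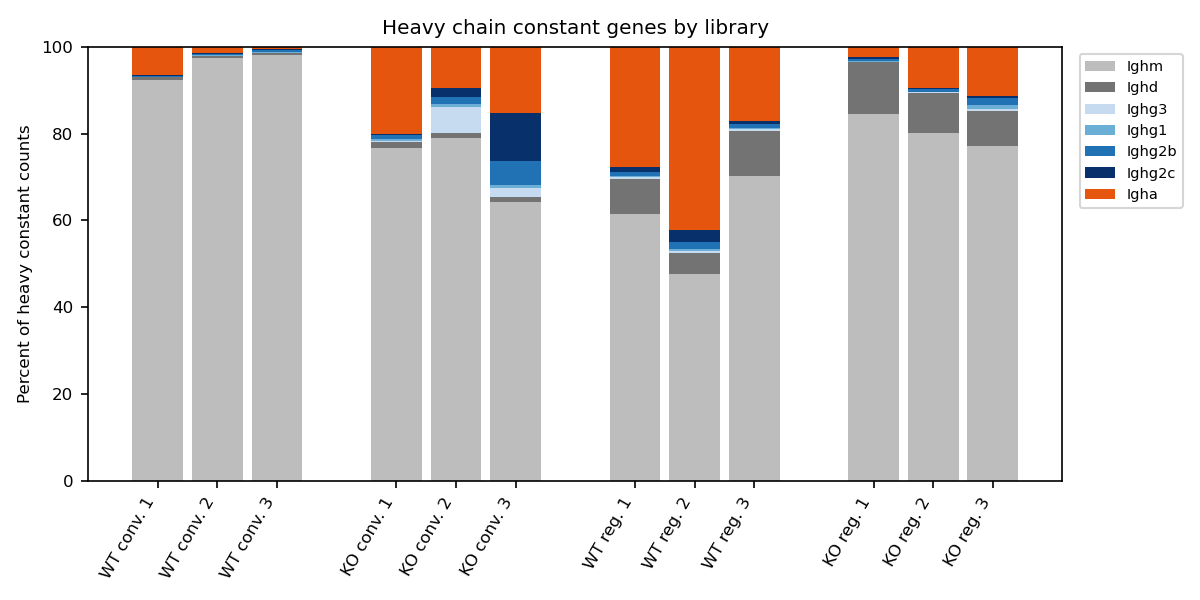
Percent of heavy chain constant counts on each of 7 genes, with 1 stacked bar per library. Ighm holds 92.4 to 98.1% in WT conventional bars and 47.6 to 70.3% in WT regulatory bars, and the Igha section is taller in WT regulatory (17.0 to 42.2%) than in KO regulatory bars (2.39 to 11.3%).

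Ighd and Ighm come from the same primary transcript in B cells, yet their ratio was not constant. There were 0.685, 0.576 and 0.524 Ighd counts per 100 Ighm counts in WT conventional libraries and 1.64, 1.48 and 1.93 in KO ones. Regulatory libraries held 13.3, 10.4 and 14.6 in WT and 14.0, 11.5 and 10.4 in KO. The regulatory values all lay above the conventional ones of their genotype, a mean difference of 11.2 (exact permutation p = 0.005, the smallest possible, adjusted 0.0175 over 14 added tests). Since this was seen before the test was added, its p could only take that value.

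The ratio of Ighm to Igkc counts moved the other way. It was 28.0, 59.1 and 64.1 in WT conventional, 5.05, 5.84 and 2.62 in KO conventional, 1.44, 0.919 and 1.78 among WT regulatory and 2.40, 2.12 and 1.76 among KO regulatory libraries. WT conventional libraries were thus set apart by many Ighm reads for each Igkc read. Regulatory minus conventional was -3.09 on the log2 scale (exact permutation p = 0.005, the smallest possible, adjusted 0.0175 over 14 added tests). Here too the cell types lay fully apart in each genotype, so p could only take that value. KO minus WT was -3.48 in conventional and 0.64 in regulatory cells, with exact permutation p of 0.1 and 0.2. The difference of the KO effects was 4.12 (exact permutation p = 0.01, adjusted 0.0280 over 14 added tests). As for the switched share, this p is against no KO effect in either cell type.

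The levels were then set beside the B cell genes Cd79a and Cd79b. These gave 77, 79 and 50 counts in WT conventional libraries and 372, 255 and 548 in KO ones. Regulatory libraries gave 25140, 42181 and 56736 in WT and 55126, 49471 and 50896 in KO. The 8 immunoglobulin constant genes held 227, 227 and 376 counts for each Cd79a or Cd79b count in WT conventional libraries and 69, 108 and 67.7 in KO conventional ones. The ratio was 9.75, 17.8 and 6.88 among WT regulatory and 5.62, 7.42 and 8.81 among KO regulatory libraries. The order was WT conventional, KO conventional, then both regulatory groups, which overlapped. Jchain and Mzb1 together gave 0.937 to 2.83 counts for each such count in WT conventional, 2.37 to 3.02 in KO conventional, 0.338 to 1.43 in WT regulatory and 0.212 to 0.457 in KO regulatory libraries. Jchain gave the larger part of this sum in every library, with 1510 reads against 64 of Mzb1 in KO conventional replicate 3. In KO regulatory replicate 1 it gave 6972 against 4723, so the ratio does not show Mzb1 alone. Mzb1 counts can lack reads from its overlap with SPATA24, and counts are not scaled to gene length. These parts thus describe the sum and do not compare the levels of the 2 genes. The part of B cells or their RNA in these levels was not tested.

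**Figure D4:**
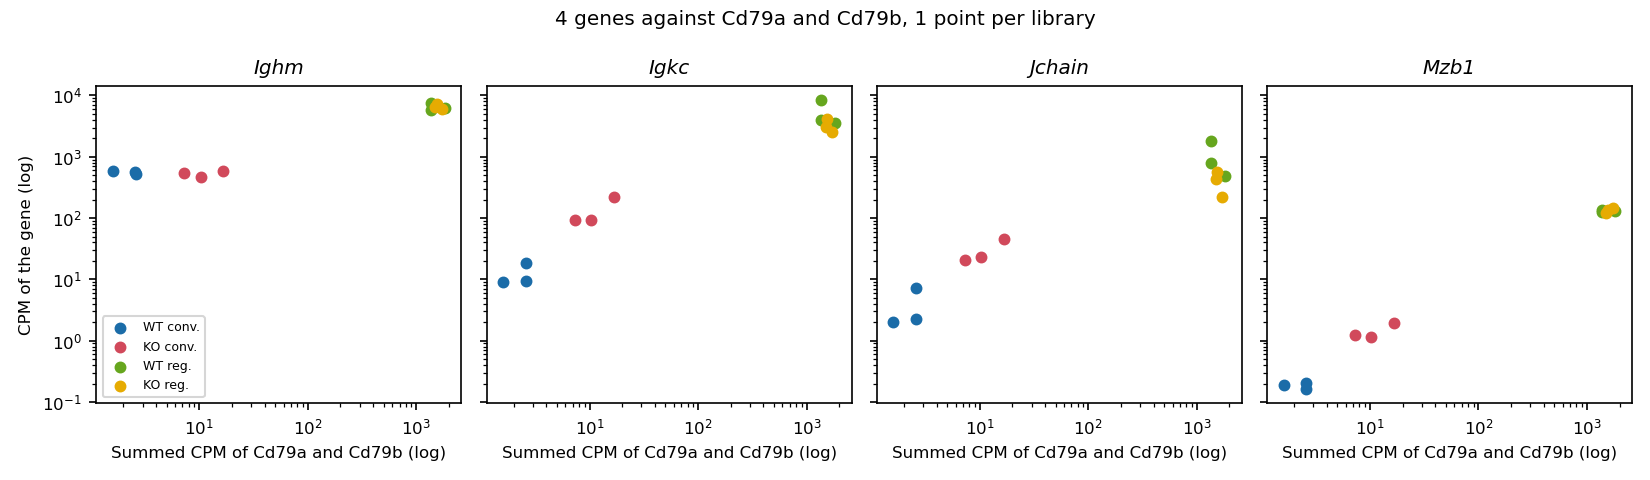
CPM of Ighm, Igkc, Jchain and Mzb1 (log axis) against the summed CPM of Cd79a and Cd79b (log axis), with 1 point per library. Ighm stays at 474 to 581 CPM in conventional libraries although that sum runs from 1.60 to 16.7 CPM. Igkc, Jchain and Mzb1 step up from WT conventional to KO conventional to regulatory libraries, as the sum does. Within the regulatory groups Igkc and Jchain do not follow its order. WT replicate 3 and KO replicate 1 have the highest sums of their groups, at 1828 and 1723 CPM. They hold the lowest Igkc (3559.7 and 2525 CPM) and Jchain (489 and 218 CPM) of their groups.

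Plasma cell markers (Sdc1, Tnfrsf17 and Derl3) summed to 0.841, 0.750 and 0.577 CPM in WT conventional libraries, with Tnfrsf17 at 0 reads in all 3. The sum was 3.24, 4.18 and 3.22 CPM in KO conventional libraries. It was 23.9, 44.5 and 23.6 CPM in WT regulatory and 19.7, 24.6 and 25.7 CPM in KO regulatory libraries. WT regulatory replicate 2, the highest here, was also the highest of its group for 9 of the 10 genes, all but Ighd. KO regulatory replicate 1, the lowest of its group, was also the lowest for 7 of the 10. KO conventional replicate 3 was the highest for 9, and its plasma cell sum of 3.22 CPM nearly equalled the 3.24 CPM of replicate 1. In conventional cells other lineages moved with genotype too. Neutrophil markers (8 of 8 higher) summed to 0.572 to 1.89 CPM for WT and 199 to 403 CPM in KO, and NK cell markers (6 of 6) to 54.8 to 67.9 and 266 to 506 CPM. Macrophage and monocyte markers (6 of 6) summed to 184 to 266 CPM for WT and 1285 to 2885 CPM in KO, and dendritic cell markers (6 of 6) to 3.23 to 4.66 and 39.8 to 86.6 CPM. In regulatory cells neutrophil markers (3 of 8 higher in KO) summed to 43.9 to 85.5 CPM in WT and 95.0 to 241 CPM in KO. NK cell markers (2 of 6) summed there to 35.2 to 60.8 and 74.9 to 82.0 CPM, so that both sums were apart between genotypes, as the switched share was. Of macrophage and dendritic cell markers 0 passed there by edgeR, with 0 and 2 at an unadjusted p under 0.05. The part of these cells in the results was not tested.

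Of 9 other immunoglobulin chain genes 6 were tested, and in KO conventional cells 3 were higher and 0 lower, the lambda constant genes Iglc2 (log2 3.02, SE 0.46), Iglc3 (2.42, SE 0.57) and Iglc1 (2.11, SE 0.77). In regulatory cells 0 of the 6 passed between genotypes by edgeR, also 0 at an unadjusted p under 0.05. Between cell types 5 were higher in each genotype, with Iglc2 at log2 10.39 in WT and 7.32 in KO. Vpreb3, related to the surrogate light chain, held 0 to 0.0326 CPM for WT conventional and 37.8 to 51.4 CPM in WT regulatory libraries.

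Of 13 B cell surface and signalling genes, 12 were higher in KO conventional cells, with a median of log2 2.64. Blk, a kinase of the B cell receptor pathway, rose by log2 3.85 (SE 0.19), Cd79b, a signalling chain of the receptor, by 2.36 (SE 0.26) and Cd22, an inhibitory co-receptor, by 2.15 (SE 0.28). All 13 were higher in regulatory cells of both genotypes, with medians of 10.78 in WT and 7.77 in KO, and by edgeR 0 passed between genotypes there, also 0 unadjusted. Of 7 B cell transcription factors, 5 were higher in conventional cells of KO and 1 lower. Irf8 was 3.99-fold higher (log2 SE 0.23) and Pou2f2 was higher by log2 0.92 (SE 0.14), and Bach2, which T cells also express, was lower at -0.67 (SE 0.11). Dendritic cell and macrophage markers were higher in these KO libraries too, and which cells gave the Irf8 and Pou2f2 reads was not tested. In regulatory cells 0 of the 7 passed between genotypes by edgeR, with 1 unadjusted.

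Genes of plasma cell identity and secretion were mixed. Of 17, 10 were higher in conventional cells of KO and 1 lower, and Sdc1, a plasma cell surface proteoglycan, had the smallest p (log2 2.58, SE 0.33). In regulatory cells 3 were higher and 0 lower in KO (8 at an unadjusted p under 0.05), the chaperones Pdia4 (log2 0.29, SE 0.05) and Hsp90b1 (0.24, SE 0.06) and the kinase Pim2 (0.45, SE 0.10). Over the 17 genes the median log2 fold change there was -0.02, and values ran from -1.76 to 0.45. Of the 10 antibody genes 0 passed there, although some changed more with a larger SE, such as Jchain at -1.34 (SE 0.53). Of 8 class switch genes, 1 was higher in conventional cells of KO, the exonuclease Exo1 (log2 1.05, SE 0.18), and 5 were lower. Rif1, which protects broken DNA ends, was among these (log2 -0.38, SE 0.06). Of 9 antibody receptors, 7 were higher in KO conventional cells, with the inhibitory receptor Fcgr2b at log2 4.45 (SE 0.40). Which cells gave these receptor reads was not tested. In regulatory cells 0 of the 9 passed by edgeR, with 1 at an unadjusted p under 0.05.

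The genes most like Ighm, Igkc, Jchain and Mzb1 were sought over the 12 libraries, by the root mean square distance between centred log2 CPM profiles, among 12992 genes at a mean of 1 CPM or more. Nearest to Ighm were Slc22a2 (0.23), Gga2 (0.28) and Pou2af1 (0.28), where the median distance to Ighm was 1.81. Pou2af1 encodes a coactivator of octamer-binding factors in B cells, and held 20.8 to 23.5 CPM in WT conventional, 22.6 to 29.8 in KO conventional, 275 to 342 among WT regulatory and 360.0 to 451 among KO regulatory libraries. Like Ighm, it was clearly detected in conventional libraries that held few B cell gene counts. Nearest to Igkc were the variable segments Igkv1-110 (0.36), Igkv8-19 (0.46) and Ighv9-3 (0.47), and nearest to Jchain were Ighv1-53 (0.48), Igkv8-28 (0.48) and Igkv14-111 (0.52). Nearest to Mzb1 were Cd79b (0.25), Tnfrsf13c (0.33), a receptor of B cell survival, and Rasgrp3 (0.35). Igkc and Jchain thus lay nearest to antibody variable segments and Mzb1 to genes of the B cell membrane and its signalling, over libraries that share the same cell types.

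The promoter of Jchain is shown because Jchain lies outside the antibody gene clusters. The RefSeq table held a promoter for 1 of the 10 genes, Jchain (GRCm38.p6, minus strand, chr5:88527848-88528147), with 250 bases before and 50 after the start. Capitals mark the 4 matches to the E-box CANNTG.
Jchain: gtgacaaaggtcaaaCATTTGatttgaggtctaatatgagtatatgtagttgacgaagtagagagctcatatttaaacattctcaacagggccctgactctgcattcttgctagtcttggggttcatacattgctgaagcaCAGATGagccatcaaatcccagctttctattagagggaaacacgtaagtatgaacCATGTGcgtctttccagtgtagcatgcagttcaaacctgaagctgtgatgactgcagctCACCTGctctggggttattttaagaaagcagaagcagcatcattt
Both strands were searched, and since the E-box reads alike on both, each match was counted once. Of 32851 promoters of the table, 72.3% hold at least 1 such match. The octamer ATGCAAAT had 0 matches in this window and is found in 1.74% of promoters, and GAGGAA, a core bound by PU.1, had 0 and is found in 28.3%. These motifs cannot be read as sites: a match describes letters only. They were kept from a longer first search, whose other motifs had 0 matches here.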

How the data were processed

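RNA-seq libraries of mouse T cells in 4 groups of 3 were analysed. The authors deposited raw read counts per Ensembl gene. Reads were aligned with STAR to the GRCm38 build, both named per the submitters' processing notes. The file's name points to reverse-stranded counting, and the annotation release is not given in the sources used here. Multimapping reads and 3 further tallies of reads given to no gene stayed out of library sizes and tests. Multimapping reads made up 9.25 to 11.1% in conventional and 15.8 to 19.5% in regulatory libraries. Reads in no feature made up 13.3 to 15.7% in conventional and 4.98 to 6.87% in regulatory libraries. The part of this split in the comparisons of cell types was not tested. Symbols were matched for 45143 of 45706 genes, and lengths and positions come from GENCODE M21.

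Counts were tested in R 4.3.3 with edgeR 4.0.16: filterByExpr (minimum count 10, minimum total 15), TMM, 1 fit of 12 libraries with a term per group, quasi-likelihood F test, two-sided, Benjamini-Hochberg over 15922 genes, threshold 0.05. The SE was taken from the log2 fold change and the root of the F statistic. The test was tried on simulated counts first. Ratios and shares of counts were compared over libraries with exact permutation tests in Python 3.11.15. For 2 sums set against B cell genes (Cd79a and Cd79b) a planned test was not given a p, since they sum over the chosen genes, so the planned family held 6 tests. The family of 14 was added after the values were seen.

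Named are all 10 genes, up to 3 genes per list and comparison with the smallest p, and the 3 genes nearest to each of 4 members (log2 CPM, prior count 2). The genes and lists were chosen with earlier results of these data known. Results that need certain genes are left out here, so 2 lists and the sum of B cell genes are given without them. Other settings tried were RLE factors, upper-quartile factors, scaling to 6 T cell genes, DESeq2 1.42.0, limma-voom (limma 3.58.1), no filter, a minimum count of 50, a fit on the compared groups alone, a replicate block, and leaving out libraries. Replicate numbers were checked for pairing, by correlating each library's deviations from its group mean, and did not pair the samples. Libraries of unlike number correlated at -0.46 to 0.57. The highest were WT regulatory replicate 3 with KO regulatory replicate 1 (0.57) and WT regulatory replicate 2 with KO regulatory replicate 3 (0.42). The part of this shared spread in the results was not tested. Leaving out WT regulatory replicate 2 with KO regulatory replicate 1 was run once and dropped, because they had been picked by their levels. Figures were drawn with matplotlib 3.10.9.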

Additional observations from a re-analysis of the deposited data

Results flagged for a closer look

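The KO effect differed between conventional and regulatory cells for 9 of the 10 genes, and 3 values of composition were flagged for the same contrast. Given as the regulatory minus the conventional log2 effect (edgeR's quasi-likelihood test, Benjamini-Hochberg adjusted), the differences were -1.53 for Ighd (adjusted p = 0.000480), -4.45 for Ighg1 (0.0428), -4.18 for Ighg2b (0.0303), -7.46 for Ighg2c (0.0125) and -6.17 for Ighg3 (0.0138). They were -5.25 for Igha (adjusted p = 0.0126), -4.16 for Igkc (0.00131), -4.33 for Jchain (0.00489) and -2.86 for Mzb1 (0.000257). Of all genes, 21.3% differed by this test. The switched share of heavy chain counts differed by -44.7 percentage points (exact permutation, adjusted p = 0.0175). The log2 ratio of Igkc to heavy chain counts differed by -3.27 (exact permutation, adjusted p = 0.0350), and that of Ighm to Igkc by 4.12 (exact permutation, adjusted p = 0.0280). These 3 tests were added after the values were seen. Their permutations were against no KO effect in either cell type, so they do not test whether the effects differ.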

How the results depend on the processing

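Of 1259 repeats of a value under another setting, 1178 were counted as unchanged. For a single gene this meant the same direction and side of the threshold. Counts of genes that passed were judged more loosely, by a limit on how far they moved. Values of composition were judged by their sign alone. Scaling to 6 T cell genes moved the median of all genes to 0.53 in both KO comparisons and to 0.71 and 0.62 between cell types, and with it 1 of the 10 genes (Ighm) passed between genotypes in regulatory cells, where the main count was 0. It also turned the sign of values near 0: Ighm to 0.54 in conventional cells and -0.014 for the difference of effects, Ighd to 0.45 and Ighg1 to 0.055 in regulatory cells, and Ighg2c to 0.17 between KO cell types. With limma-voom 5 of the 10 passed in conventional cells and 5 for the difference of effects, in place of 9 and 9, and Ighg2c between KO cell types became 1.10. Ighm in conventional cells became 0.0088 with upper-quartile factors, 0.024 with a minimum count of 50 and 0.019 with the compared groups alone, and its difference of effects became -0.0091 with a minimum count of 50. With the replicate number as a block, which did not pair the samples (same-number correlations of -0.52 to 0.18), the counts were 9, 0, 10, 8 and 9 and Ighg2c between KO cell types became 0.31. Without the pair of libraries that held Xist besides Y-linked reads, Mzb1 in regulatory cells became -0.011. The cause of these changes was not tested. Over all genes, the calls in conventional cells were 3706 higher and 4043 lower, and became 4057 and 2840 with upper-quartile factors and 7006 and 60 with the T cell genes. In regulatory cells the 1246 calls became 5157 with the T cell genes, 2010 with DESeq2 and 313 with the compared groups alone. For the difference of effects the 3393 calls became 951 with the T cell genes, and the split of 1411 above and 1982 below became 895 and 2111 with a minimum count of 50.

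Leaving out 1 library in turn, Ighm ran from -0.12 to 0.023 in conventional and from -0.083 to 0.13 in regulatory cells, and from -0.026 to 0.19 for the difference of effects. In regulatory cells Ighd ran from -0.14 to 0.010, Ighg1 from -2.09 to 0.44, Mzb1 from -0.011 to 0.14 and Ighd counts per 100 Ighm counts, KO minus WT, from -1.96 to 0.11. Between KO cell types Ighg2c ran from -0.95 to 2.05, Ighg3 from -0.38 to 1.54 and the count of genes that passed from 5 to 8, with the lowest count without KO regulatory replicate 3. The count ran from 6 to 9 in conventional cells and from 7 to 9 for the difference of effects, and was 10 in WT and 0 in regulatory cells throughout. WT conventional libraries held 3 to 26 reads of Ighg3 and 5 to 6 of Mzb1, which limits the folds against them.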

Other observations

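Counts of Igkc for each heavy chain count were 0.0330, 0.0165 and 0.0153 across WT conventional and 0.152, 0.135 and 0.245 across KO conventional libraries. They were 0.426, 0.518 and 0.395 across WT regulatory and 0.353, 0.378 and 0.439 across KO regulatory libraries, so that the conventional groups lay apart from each other and the regulatory groups overlapped. The log2 KO minus WT difference was 3.08 in conventional cells (exact permutation p = 0.1, the smallest possible) and -0.19 in regulatory cells (exact permutation p = 0.3). The lambda gene Iglc1 held 227, 518 and 234 CPM in WT regulatory libraries, with replicate 2 the highest as for Igha and Jchain, whereas Iglc2 held 279, 336 and 324 CPM there. Both genes encode lambda constant regions, and KO regulatory libraries held 206, 165 and 211 CPM of Iglc1 and 327, 261 and 323 CPM of Iglc2.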
